A study of Mus musculus with 3 samples.

Results

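Dividing chondrocytes were examined among sorted bone-lining cells (BLCs) of wild-type mice. A cell was taken as a dividing Matn3 chondrocyte when it held at least 1 unique molecular identifier (UMI, a tag that counts 1 captured transcript) of Mki67 and at least 1 of Top2a, at least 3 of Acan, at least 1 of Matn3 and none of Ptprc, the gene for CD45. This rule found 292 of the 19482 barcodes left after a cell filter (200 genes or more, mitochondrial UMIs no higher than 20%), out of 20307 barcodes in the files. The study states a larger number of cells, so its cell calls may not be those of the files, and each count and share here is over the barcodes in the files. The BLCs came from femora, tibias and iliac bones of WT mice, freed with collagenase after the marrow had been flushed out, and the sort took CD45-, Ter119-, CD31-, Alcam+ and Sca-1- cells. 3 droplet libraries (3′ chemistry) form 1 group, so every comparison is between cells of the same libraries. The labels give no age, strain, treatment, date or animal number, and the tissue is labelled bone marrow, whereas the cells described here are cartilage cells by their transcripts. The study calls the 3 samples independent without saying whether each is a separate mouse or pool, so every p-value measures only the spread between summed cells of these libraries.

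Chondrocytes are the cells of cartilage. In the growth plate, the cartilage disc by which long bones lengthen, a reserve of slowly cycling resting cells feeds columns of flat dividing cells, which then stop dividing, enlarge (hypertrophy) and give way to bone. Division itself runs through fixed steps: D-type cyclins with CDK4 and CDK6 drive the exit from G1, MCM proteins license the origins of replication, the DNA and its histones are made in S phase, and in mitosis the kinetochores and the spindle part the chromosomes. Mki67 coats mitotic chromosomes and Top2a untangles their DNA. Acan, the large proteoglycan of cartilage, and Matn3, a matrix adaptor protein, mark chondrocytes.

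The promoters of Mki67, Top2a and Matn3, which are among the genes of the rule, and of the markers Cenpf and Prc1 are shown because genes of mitosis are known to share CCAAT boxes and the cell cycle homology region (CHR). Each sequence is the 250 bases before the RefSeq start (GRCm38.p6), 5′ to 3′ on the strand of the gene, and capitals mark CCAAT and the CHR letters TTTGAA or TTCGAA on either strand. Mki67 lies at chr7:135716380-135716629, Top2a at chr11:99024190-99024439, Cenpf at chr1:189688087-189688336 (all - strand), and Prc1 at chr7:80294201-80294450 and Matn3 at chr12:8947679-8947928 (both + strand).
Mki67: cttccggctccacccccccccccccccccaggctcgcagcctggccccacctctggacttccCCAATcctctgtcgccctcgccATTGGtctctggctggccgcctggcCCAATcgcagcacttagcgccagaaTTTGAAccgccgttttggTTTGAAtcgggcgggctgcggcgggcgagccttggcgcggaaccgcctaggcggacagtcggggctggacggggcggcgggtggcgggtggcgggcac
Top2a: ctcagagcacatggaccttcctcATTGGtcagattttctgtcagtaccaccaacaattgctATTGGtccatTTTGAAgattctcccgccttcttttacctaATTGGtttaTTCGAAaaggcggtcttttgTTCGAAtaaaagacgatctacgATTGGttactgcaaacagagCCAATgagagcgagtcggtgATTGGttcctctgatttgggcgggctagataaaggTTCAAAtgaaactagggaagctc
Cenpf: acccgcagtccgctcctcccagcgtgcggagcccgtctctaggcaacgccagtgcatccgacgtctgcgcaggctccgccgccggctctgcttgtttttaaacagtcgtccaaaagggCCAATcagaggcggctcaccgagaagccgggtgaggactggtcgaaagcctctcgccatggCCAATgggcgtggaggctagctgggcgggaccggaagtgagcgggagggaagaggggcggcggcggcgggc
Prc1: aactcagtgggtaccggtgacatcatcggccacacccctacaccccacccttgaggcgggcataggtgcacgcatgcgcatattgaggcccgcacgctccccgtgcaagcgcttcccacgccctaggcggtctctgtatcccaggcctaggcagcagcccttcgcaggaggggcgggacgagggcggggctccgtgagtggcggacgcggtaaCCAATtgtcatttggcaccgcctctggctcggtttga
Matn3: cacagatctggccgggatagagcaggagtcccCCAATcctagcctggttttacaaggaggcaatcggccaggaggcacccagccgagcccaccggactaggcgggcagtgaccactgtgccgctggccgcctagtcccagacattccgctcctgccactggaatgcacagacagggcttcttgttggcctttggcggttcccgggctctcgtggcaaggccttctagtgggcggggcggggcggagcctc

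The Mki67 promoter held 3 CCAAT and 2 CHR matches, and that of Top2a 6 and 4. Cenpf held 2 CCAAT matches, and Prc1 and Matn3 1 each, and none of these 3 had a CHR match. None of the 5 had the E2F letters TTTCCCGC or TTTGGCGC. CCAAT was found in 65.1% of the 63 promoters matched among 71 mitosis genes and in 63.4% of the 41 matched among 50 DNA replication genes, against 34.5% of all 27025 promoters and 20.8% of the 24 matched among 33 cartilage collagen and matrix genes. CHR letters were in 27.0%, 17.1%, 17.4% and 16.7% of the same sets, and the E2F letters in 6.35%, 14.6%, 1.35% and 0%. A match is a description of the letters and not evidence of a bound factor.

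All members came from 2 libraries. Replicate 2 held 158 of them (2.35% of its kept cells) and replicate 3 held 134 (1.31%). Replicate 1 held none, but it had only 13 chondrocytes with Matn3, and 0 of 13 cells allows a share of up to 23.1% (3 counts). The totals were 20985636, 79905165 and 69890252 UMIs for replicates 1, 2 and 3. Between 5 and 28 barcodes were shared by each pair of libraries, and 1 member of replicate 2 and 1 of replicate 3 had a barcode that another library also used.

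The rule set Mki67 and Top2a, so their values describe the members and test nothing. Members held a median of 10 and 7 Mki67 UMIs in replicates 2 and 3, and 16 and 12 of Top2a. Only 7 members of each library sat exactly at 1 UMI of both. Just outside the rule, 198 and 167 Matn3 chondrocytes had UMIs of 1 of these genes (82 with Mki67 and 116 with Top2a in replicate 2), and 17 and 22 cells had both genes and Acan but no Matn3. The median Acan count was 64.5 and 37.5 UMIs, far from the limit of 3, and that of Matn3 was 52.5 and 30.

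The markers fixed for the label that the rule did not use were present. Cenpf, a kinetochore protein of late cell cycle (chromosome 1, 189640606 to 189688086), was detected in 87.3% and 82.8% of members. It was seen in 3.47% and 2.42% of the 2855 and 3557 non-dividing Matn3 chondrocytes, those with neither Mki67 nor Top2a. Prc1, which bundles the microtubules of the dividing spindle (chromosome 7, 80294450 to 80316259), was detected in 91.1% and 93.3% of members against 6.80% and 3.63%. With every cell thinned to 3000 UMIs the shares were 57.0% and 55.7% against 0.984% and 0.878% for Cenpf, and 68.4% and 70.2% against 1.64% and 1.18% for Prc1. The 8 measured genes of a chondrocyte marker list summed to 65899 and 61625 CPM (counts-per-million scale, the UMIs of a gene divided by the total of the summed cells). They summed to 1429 and 3439 CPM in dividing Ptprc cells, those with Mki67, Top2a and Ptprc UMIs. These values describe the label of dividing chondrocyte and do not test it, since the members were chosen by Mki67, Top2a, Acan and Matn3.

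Members differed from their neighbours in depth and in blood transcripts. Their median depth was 28244 and 16206 UMIs, against 14418 and 8704 in non-dividing Matn3 chondrocytes, so the comparisons that use non-dividing cells were repeated with such cells drawn to a similar depth (medians of 25259 and 16135 UMIs in Matn3 chondrocytes). The counts of lists outside the cell cycle are given below for both. The matched sums held 158 and 133 non-dividing Matn3 chondrocytes instead of 2855 and 3557. Fewer genes were then called: 1696 higher and 1432 lower of all 13129 genes tested, against 2874 and 2526 of 14422. A list count at matched depth is to be read against these numbers. 7 and 9 members held at least 5 UMIs of 19 leukocyte and erythroid genes (4.43% and 6.72%, against 0.315% and 0.197% of non-dividing cells). These cells had a median of 6 and 3 Matn3 UMIs, against 55 and 32 in the other members, and 24 and 15 Acan UMIs against 66 and 39. Leukocyte genes summed to 70.3 and 1073 CPM in members against 9.57 and 14.0, and erythroid genes to 494 and 653 CPM against 6.78 and 11.8. 7 of 9 leukocyte and 10 of 10 erythroid genes were called higher in members. None of the 5 and 5 still tested was called without those cells, but the cells were chosen by these genes, so this tests nothing. A doublet score would have removed 13 and 26 members. Counts without those cells are given where they moved by over 1.5 times. The part of depth and of these cells in the results was not tested beyond the values given.

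Among chondrocytes with Matn3, cells holding both genes made up 4.92% in replicate 2 (95% exact binomial interval 4.20 to 5.73%, 158 of 3211) and 3.47% in replicate 3 (2.92 to 4.10%, 134 of 3858). Among chondrocytes without a Matn3 UMI the shares were 0.874% (0.510 to 1.40%) and 0.606% (0.380 to 0.916%). The intervals cover counting error only, since cells of 1 library are not replicates, and the shares rest on genes of the rule, so they are a description. The classes also differed in depth, with medians of 14899 and 8913.5 UMIs with Matn3 and 8913.5 and 5838 without. At 3000 UMIs per cell the shares were 2.78% and 2.25% with Matn3 and 0.573% and 0.399% without. The classes were still set by all UMIs there, so thinning does not remove the part of depth in the choice of class. Cells with at least 1 Ptprc UMI, which should be rare after the sort, held both genes in 68.3% and 63.3% of cases, and cells with fewer than 3 Acan UMIs and no Ptprc in 4.90% and 4.17%. With 2 libraries a permutation test over libraries cannot reach 0.05, so none was run. Matn3 was used by the rule, so its level is a description only: its median was 2048 and 1820 CPM per cell in members, against 1023 and 952 in non-dividing Matn3 chondrocytes.

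**Figure D1:**
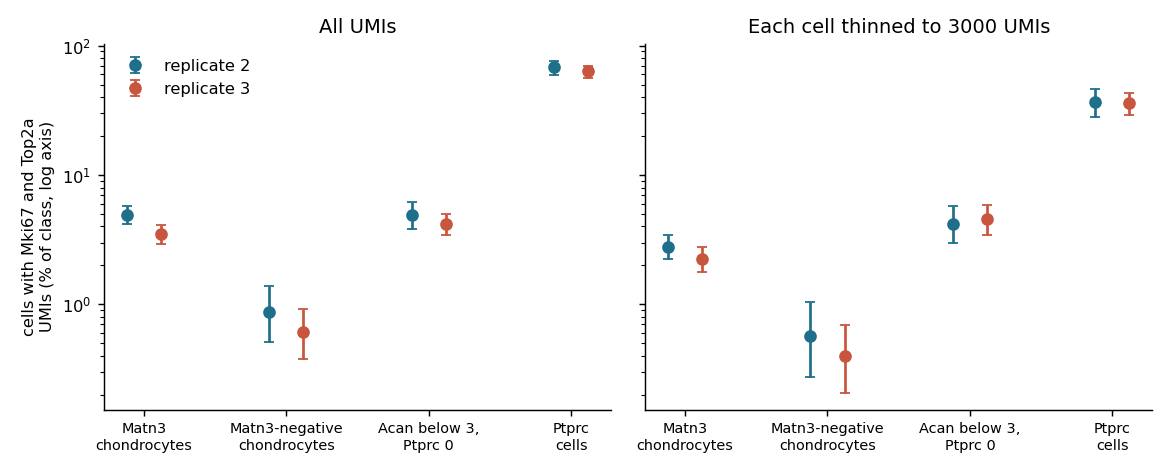
Share of cells with at least 1 UMI of Mki67 and of Top2a (% of each class, log axis) in replicates 2 and 3, with all UMIs on the left and with each cell thinned to 3000 UMIs on the right. Classes were set by all UMIs in both panels. Points are shares and bars exact binomial 95% intervals; Matn3 chondrocytes sit above Matn3-negative chondrocytes in both libraries and both panels, and Ptprc cells are highest.

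Members carried more transcripts of the mitosis lists than of the DNA replication lists. They were chosen by Mki67 and Top2a and the lists differ in length, so this order is a description and tests nothing. In cells thinned to 3000 UMIs, 71 mitosis genes, without Mki67 and Top2a, had a median of 21.5 UMIs in replicate 2 (range 0 to 74) and 23 in replicate 3 (1 to 78). The 50 genes of origin licensing and DNA synthesis had a median of 7 (0 to 30) and 8 (0 to 27). Non-dividing Matn3 chondrocytes had medians of 2 and 1 for the same lists in both libraries, and cells with 1 of the rule's genes had 3 for mitosis and 1 and 2 for replication. Mitosis UMIs outnumbered replication UMIs in 127 of 158 members (80.4%) and in 105 of the 131 members of replicate 3 that were deep enough (80.2%). Dividing Ptprc cells, chosen with the same genes, showed this order in 43 of 81 (53.1%) and 67 of 124 cells (54.0%). Their medians were 17 and 15 for mitosis and 14 and 12 for replication. Non-dividing Matn3 chondrocytes showed the order in 48.1% and 48.0% of cells, and the reverse order in 29.7% and 30.3%. Within members the 2 sums had a Spearman rho of -0.06 and -0.02 across cells, which share a library and are not replicates. Without thinning, rho was 0.29 and 0.22, where cells also differ in depth. Replication UMIs outnumbered mitosis UMIs in 30 and 24 members.

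**Figure D2:**
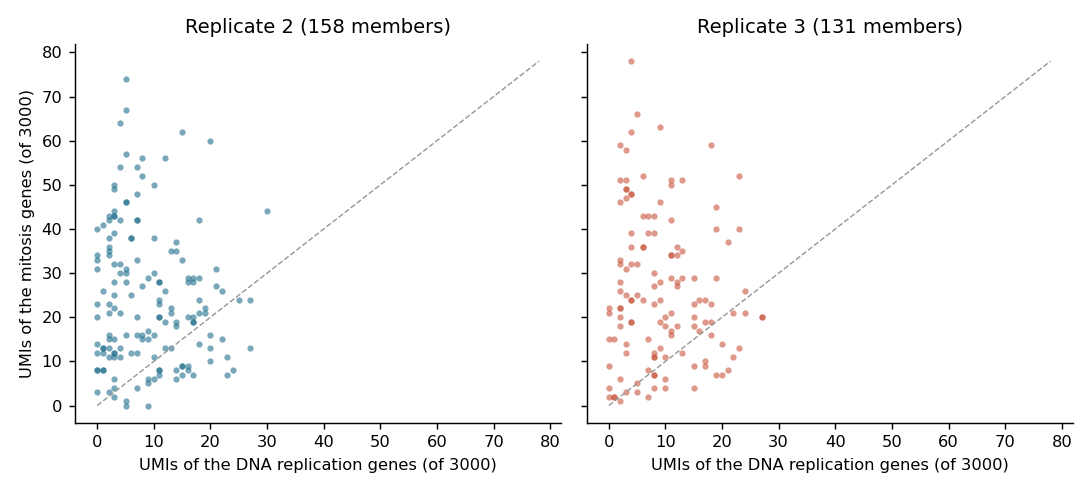
UMIs of 50 DNA replication genes (horizontal axis) and of 71 mitosis genes (vertical axis) in each member thinned to 3000 UMIs, for replicate 2 (158 cells) and replicate 3 (131 cells). Each point is 1 cell and the dashed line marks equal sums; 127 and 105 cells lie above it.

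The first comparison asked what else set dividing apart from non-dividing Matn3 chondrocytes. UMIs were summed per library and population and fitted with edgeR (quasi-likelihood test with the library as a block, 14422 genes, adjusted p under 0.05 called). 5400 genes (37.4%) were called, 19.9% higher and 17.5% lower in members, and the median over all genes was 0.00 on the log2 scale. Cell cycle genes were bound to differ here because the cells were chosen by Mki67 and Top2a, so their levels follow as a description with no test.

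Origin licensing genes were low outside division. Mcm5, a subunit of the replicative helicase, stood at 51.2 and 55.5 CPM in members against 2.04 and 2.58 CPM in non-dividing cells, and Gmnn, which blocks re-licensing, at 84.5 and 75.0 against 2.11 and 2.12 CPM. All 17 licensing genes were above the non-dividing level, with a median log2 difference of 3.13, and so were all 33 DNA synthesis genes (median 2.84). Pcna, the sliding clamp of DNA polymerase, was also transcribed outside division: 210 and 231 CPM against 58.4 and 66.0. Rrm2, which supplies deoxynucleotides, was at 153 and 158 against 3.71 and 3.40 CPM. Of the histone and chromatin genes, Hist1h1b reached 621 and 632 CPM against 4.72 and 2.67, H2afz 2258 and 2610 against 256 and 277, and Hmgb2 1679 and 1721 against 84.1 and 79.9. Hist1h1c, a linker histone also made outside S phase, was at 172 and 145 CPM against 157 and 121.

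The lists of mitosis followed. Cdk1, the mitotic kinase, stood at 277 and 331 CPM against 1.55 and 1.10, and Birc5 of the chromosomal passenger complex at 353 and 386 against 1.50 and 1.63. The list medians were 7.65 for 16 mitotic kinases and checkpoint genes, 6.28 for 24 spindle and cytokinesis genes, 5.50 for 22 kinetochore genes, 4.21 for 14 condensation and cohesion genes and 3.97 for 15 cyclins and CDKs. The 10 genes with the greatest fitted difference among those at 50 CPM or more were Bub1, Aurkb, Esco2, Hmmr, Neil3, Pbk, Depdc1a, Nuf2, Ccna2 and Ckap2l. Bub1, a spindle checkpoint kinase, held 362 UMIs in members and 5 in all non-dividing cells. Pttg1, which encodes securin, went the other way, at 24.8 and 24.8 CPM in members against 34.0 and 37.3. Its difference of -0.60 became 0.01 against depth-matched cells. Rbl2 and E2f4, both of the complex that represses these genes in quiescence, differed by -0.19 and 0.34. Outside the cell cycle lists, Neil3, Depdc1a, Pclaf, Shcbp1, Car1, Car2, Cdca3, Hist1h2ab and Hba-a1 led. Pclaf, which binds PCNA, was at 264 and 257 CPM against 1.06 and 1.17. Car1, Car2 and Hba-a1 are genes of red cells. Hba-a1 went from a difference of 6.41 to -0.91 without the blood-carrying cells, and Car1 and Car2 were then too low to be tested. These genes were among those that chose the cells left out, so the fall describes that choice.

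Over the 9 summed populations used in the fit, the genes whose log2 CPM followed Mki67 most closely were Cenpe, Ccnb2, Cks2, Stmn1, Cdca3, Fkbp2, Lockd, Cenpw, Cenpf and E2f1 (Pearson r from 0.998 to 0.993). The sums share 2 libraries and this is a description. Stmn1, a microtubule regulator, stood at 1142 and 1346 CPM in members, 127 and 158 in cells with 1 of the rule's genes, and 14.1 and 14.1 in non-dividing cells. Stmn1 was picked because it followed Mki67, which set these populations, so the order of its levels follows from that choice.

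Several inhibitors of CDKs were higher in dividing cells. Any gene transcribed with the cell cycle would differ here by the choice on Mki67 and Top2a. Whether these inhibitors and the G1 genes that follow are such genes was not tested. Cdkn2c (p18) was at 138 and 117 CPM in members and 21.0 and 14.9 in non-dividing Matn3 chondrocytes, a log2 difference of 2.74 ± 0.09 (SE, n = 2 libraries, edgeR adjusted p = 4.11e-11). Cdkn2d (p19) was at 210 and 227 against 59.6 and 61.6 CPM (1.76 ± 0.08), and Cdkn2a, which encodes p16 and ARF, at 16.3 and 14.0 against 0.845 and 0.705 CPM (4.19 ± 0.29). All 3 bind or act on the pathway of CDK4 and CDK6, and all 3 kept their calls against depth-matched cells. At 3000 UMIs per cell, Cdkn2c was seen in 32.9% and 29.0% of members, 4.95% and 4.09% of non-dividing cells and 9.88% and 15.3% of dividing Ptprc cells. Cdkn1a (p21) stood at 387 and 529 CPM against 418 and 467, a difference of -0.06 ± 0.08 that did not pass (edgeR adjusted p = 0.608). Cdkn1c (p57) was called (0.50 ± 0.11, 306 and 326 against 209 and 209 CPM), but not against depth-matched cells (0.06, edgeR adjusted p = 0.854).

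The G1 engine itself moved unevenly. Of 17 G1 and inhibitor genes tested, 7 rose and 3 fell (6 and 2 at matched depth). Cdk4 (107 and 84.9 against 48.9 and 46.1 CPM, 0.95 ± 0.12) and Cdk6 (174 and 167 against 78.1 and 80.6 CPM, 1.02 ± 0.08) rose. The difference in Cdk6 was 0.37 against depth-matched cells. Ccnd1, the cyclin D of dividing chondrocytes, stood at 170 and 218 CPM in members and 183 and 190 in non-dividing cells (-0.05 ± 0.09, edgeR adjusted p = 0.694). Its difference was 0.36 with each cell thinned (adjusted p = 0.0383) and -0.37 among cells with at least 1000 CPM of Matn3 (adjusted p = 0.00453), so no direction could be given. Ccnd2 fell from 61.4 and 83.2 to 21.5 and 24.4 CPM (-1.72 ± 0.15), and Gas1, a growth arrest gene of resting chondrocytes, from 127 and 142 to 29.7 and 38.4 CPM (-2.10 ± 0.12).

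Cartilage collagens in dividing cells stood close to the non-dividing level. Col2a1, the main cartilage collagen, was at 42697 and 39953 CPM in members and 34838 and 31158 in non-dividing cells (0.24 ± 0.04, edgeR adjusted p = 0.000138), but the difference was -0.05 against depth-matched cells (adjusted p = 0.444). Of 11 cartilage collagens, 2 rose (Col2a1 and Col11a2) and 2 fell, with a median of -0.05, and against depth-matched cells none rose and 7 fell (median -0.25). Without the blood-carrying cells 3 rose and 1 fell. Col9a1 stood at 0.06 ± 0.05 and then fell by 0.26 with matched depth. Of 22 other matrix genes 1 rose and 11 fell, none and 14 at matched depth, and 3 and 9 without the blood-carrying cells. Dcn, a small proteoglycan, fell from 2086 and 2496 to 555 and 824 CPM (-1.84 ± 0.09), Thbs1 from 660 and 697 to 242 and 270 CPM (-1.50 ± 0.07), and Fn1 from 5160 and 5060 to 3763 and 3503 CPM (-0.58 ± 0.06). Hapln1, which links Acan to hyaluronan, did not pass (-0.04 ± 0.06), though it fell by 0.27 against depth-matched cells. The chondrocyte regulators Sox9 (1110 and 1260 against 1409 and 1545 CPM, -0.41 ± 0.06) and Sox5 (-0.41 ± 0.06) fell slightly, Trps1 fell by 0.87, and Sox6 did not pass (-0.04 ± 0.07). None of 17 such regulators rose and 10 fell (7 at matched depth).

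**Figure D3:**
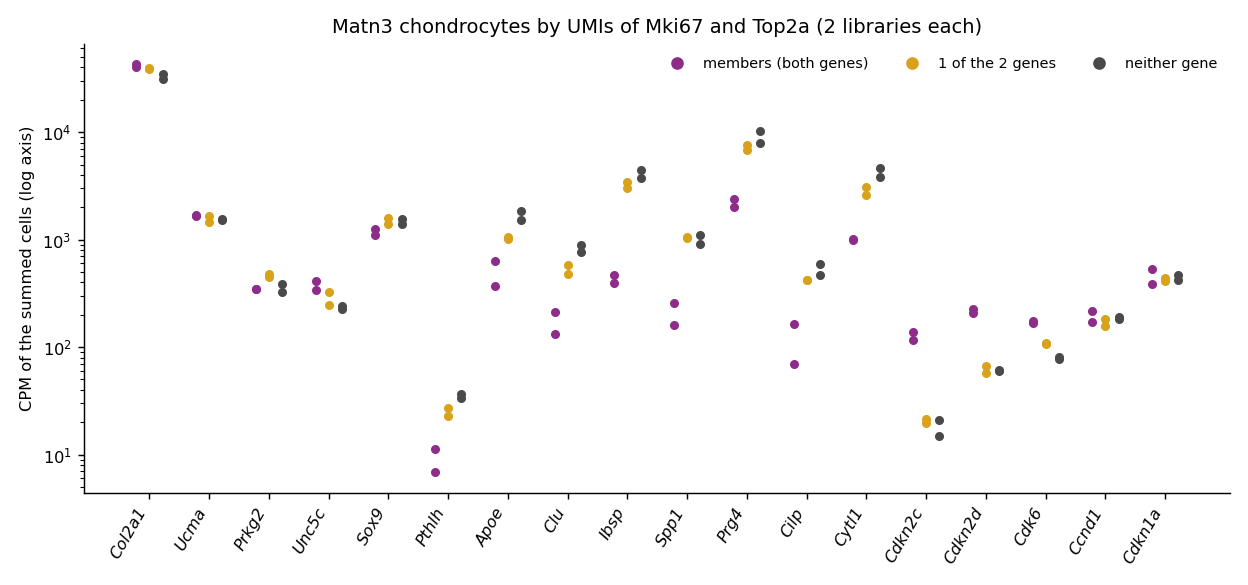
CPM (log axis) of 18 genes in Matn3 chondrocytes with UMIs of both Mki67 and Top2a (members), 1 of them, or neither, summed per library; each point is 1 of replicates 2 and 3. Col2a1, Ucma, Prkg2 and Ccnd1 lie close together in the 3 populations, Pthlh, Clu, Ibsp, Spp1 and Prg4 are lowest in members, and Cdkn2c, Cdkn2d and Cdk6 are highest in members.

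The zones of cartilage are given from the columns outward. Of 13 genes of the columnar dividing zone, 2 rose and 5 fell, with a median of -0.11 (1 and 7 at matched depth, and 3 and 3 without the blood-carrying cells). Unc5c, a netrin receptor, rose from 242 and 225 to 416 and 339 CPM (0.60 ± 0.08, edgeR adjusted p = 8.96e-05). Prkg2, a kinase needed for growth plate order, stood at 351 and 349 against 384 and 328 CPM (-0.11 ± 0.07), and fell by 0.55 against depth-matched cells. Ucma, a small secreted matrix protein of the upper growth plate, was at 1674 and 1687 against 1571 and 1536 CPM (0.03 ± 0.06), with -0.20 at matched depth and -0.22 among cells with at least 1000 CPM of Matn3.

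Resting zone genes fell: 10 of 12, none rose, with a median of -1.88, and 9 fell at matched depth (median -1.23). Pthlh, the PTHrP signal that resting cells send to keep columns dividing, went from 34.0 and 36.6 to 6.84 and 11.3 CPM (-2.13 ± 0.19). Sfrp5, a Wnt inhibitor, went from 66.2 and 74.6 to 16.8 and 22.6 CPM (-1.97 ± 0.15), and Apoe from 1538 and 1857 to 372 and 626 CPM (-1.89 ± 0.11). Clu fell by 2.39 and Spon1 by 2.49.

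The list of superficial (articular) cartilage fell in 12 of 14 genes (median -2.05, and -1.52 with 11 at matched depth). Prg4, the lubricant of joint surfaces, went from 7997 and 10311 to 1996 and 2407 CPM (-2.14 ± 0.05), Cytl1 from 3806 and 4612 to 1007 and 1000 (-2.15 ± 0.10) and Wif1 from 600 and 685 to 143 and 181 CPM (-2.10 ± 0.13). The hypertrophic list fell in 11 of 12 genes (median -1.29, and 7 genes with -1.11 at matched depth). Ibsp, a bone matrix protein made by late hypertrophic cells, stood at 3766 and 4482 CPM in non-dividing cells and 391 and 473 in members, and Cilp of the superficial list at 464 and 591 and then 69.1 and 166 CPM. Spp1 fell by 2.34 and Alpl, the mineralising phosphatase, by 1.03. Col10a1, the hypertrophic collagen, was called at -1.34 ± 0.40 (57.3 and 36.1 against 95.1 and 128 CPM, edgeR adjusted p = 0.0187), but not at matched depth (adjusted p = 0.0764). Among cells with at least 1000 CPM of Matn3 the medians were -0.97 for resting (8 fell), -1.19 for superficial (8 fell) and -1.09 for hypertrophic genes (7 fell). The genes with the greatest fall at 50 CPM or more were Msmp, Ibsp, Rgs6, Ogn, Omd, Pde7b, Rbp4, Cxcl14, Spon1 and Clu. Msmp differed between the libraries, at 2210 and 651 CPM in non-dividing cells against 38.9 and 20.8 in members. No size is given for the falls of Ibsp, Cilp and Msmp, whose levels in members were not above those of dividing Ptprc cells in both libraries, as follows. Levels of Prg4 and Cytl1 in members were above them in both libraries but not called different either. The sizes given for Prg4 and Cytl1 carry that limit.

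Transcripts released from broken cells are captured in every droplet, so the lowest of these levels were set beside dividing Ptprc cells, which should lack cartilage genes. Ibsp stood at 528 and 230 CPM in dividing Ptprc cells, Cilp at 90.1 and 249, Prg4 at 650 and 1685, Cytl1 at 434 and 797 and Msmp at 47.4 and 45.5. None of these 5 was called different from members (edgeR adjusted p = 0.353, 0.403, 0.0878, 0.0827 and 0.250). The ranges of the 2 libraries overlapped for Ibsp and Cilp, Msmp was lower in members, and Prg4 and Cytl1 were higher in members in both libraries. Levels of Ibsp, Cilp and Msmp in members were thus not told apart from those of dividing Ptprc cells. Whether they are background or expression was not tested. Acan stood at 89.6 and 254 CPM in dividing Ptprc cells, of which 1 and 9 met the rest of the rule. At 3000 UMIs per cell, Prg4 was seen in 42.4% and 52.7% of members and 37.0% and 54.8% of dividing Ptprc cells, and Ibsp in 21.5% and 22.1% against 16.0% and 25.0%. Apoe (83.1 and 154 CPM in dividing Ptprc cells, difference 2.19 ± 0.35), Pthlh (3.63 ± 0.84), Sfrp5 (3.22 ± 0.62) and Wif1 (1.50 ± 0.23) were above that level in members. Clu and Spp1 were above it too (0.94 and 1.26), but not without the blood-carrying members (adjusted p = 0.112 and 0.175). Unc5c, seen in 55.7% and 57.3% of thinned members, was in 0% and 1.61% of dividing Ptprc cells. 0 of 81 cells allows a share of up to 3.70% with a UMI at that depth (3 counts).

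**Figure D4:**
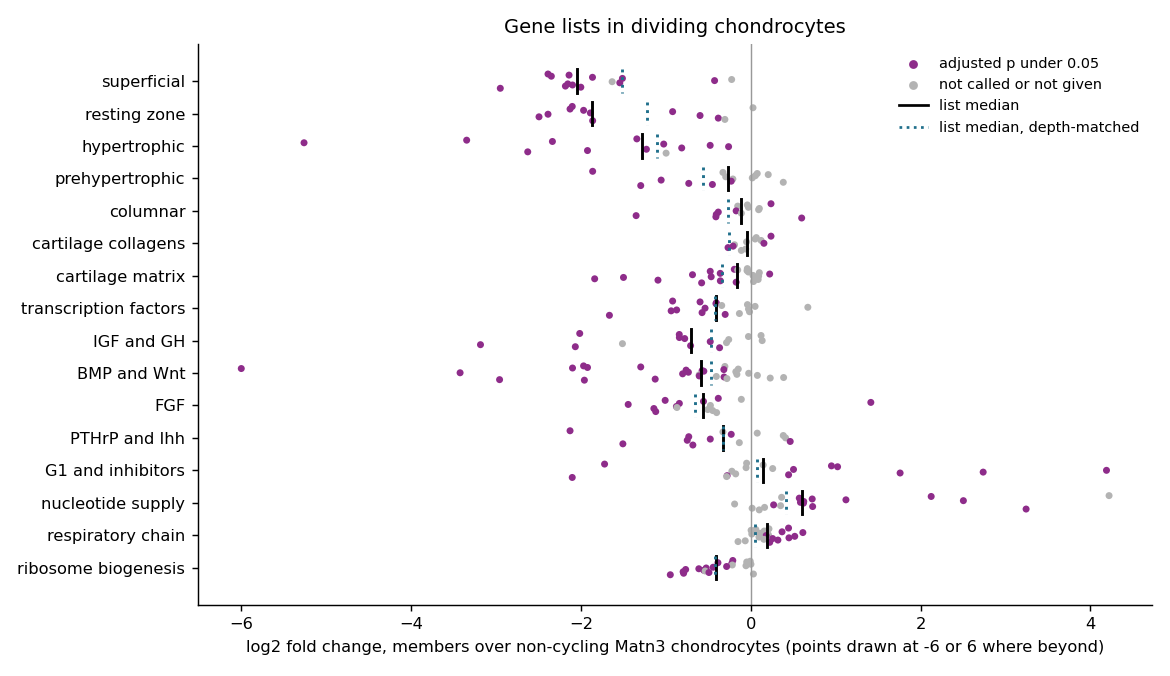
Log2 fold change of each tested gene in 16 lists, members over non-dividing Matn3 chondrocytes. Each point is 1 gene (purple, edgeR adjusted p under 0.05; grey, not called, or Tyms, whose test is not given because it is also a DNA synthesis gene), black bars are list medians and dotted blue bars the medians against depth-matched cells; the superficial, resting zone and hypertrophic medians lie at -2.05, -1.88 and -1.29, and the cartilage collagen median at -0.05.

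Growth signals and metabolism are given by list. Of 13 genes of the PTHrP and Ihh loop, 1 rose (Gli3, 0.46 ± 0.08) and 7 fell (4 at matched depth), and the receptor Pth1r stood at 258 and 229 against 240 and 195 CPM (0.08 ± 0.07, not called). Fgfr1 fell by 1.01 and Npr2, the receptor for CNP that promotes columnar growth, by 1.12. Fgfr3, which restrains chondrocyte division, stood at 64.9 and 64.1 against 77.0 and 82.7 CPM (-0.38 ± 0.12) and was not called at matched depth. Of 28 BMP and Wnt genes 17 fell and none rose (13 and none at matched depth). Bmp2 fell by 1.92, and Bmp4 had 0 UMIs in members and 155 in non-dividing cells, at least 4.43-fold lower against a floor of 3 UMIs over the group. Of 15 IGF and growth hormone genes 9 fell and none rose (7 and 1 at matched depth), Ghr by 0.84. Nucleotide supply rose in 12 of 18 genes (median 0.60), Tyms of the DNA synthesis list among them. Dck, which salvages deoxynucleosides, went from 3.21 and 2.42 to 28.3 and 29.4 CPM (3.24 ± 0.21), and 7 of the 18 genes rose and 1 fell at matched depth. The respiratory chain rose in 9 of 20 genes, but at matched depth 1 rose and 2 fell. Ribosome biogenesis fell in 13 of 20 genes (median -0.41), 9 of them at matched depth, and the glucose transporter Slc2a1 fell by 1.07.

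Alcam, the sort marker (Activated leukocyte cell adhesion molecule), was at 22.2 and 30.7 CPM in members and 14.2 and 13.8 in non-dividing Matn3 chondrocytes (0.78 ± 0.16, edgeR adjusted p = 0.00193). It was higher in dividing Ptprc cells, at 123 and 146 CPM (members over these cells -2.27 ± 0.16, edgeR adjusted p = 5.18e-07). Thinned shares with a UMI were 8.23% and 9.16% of members, 4.37% and 3.66% of non-dividing cells, and 33.3% and 25.8% of dividing Ptprc cells.

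A comparison added after the values were seen set members against the dividing Ptprc cells of replicates 2 and 3 (82 and 126 cells), which passed the same gate for Mki67 and Top2a at similar depth (24397 and 14414 UMIs). The 99 such cells of replicate 1 did not enter. It asked how the division programme of a chondrocyte differs from that of a blood cell in the same libraries. 8151 of 12402 genes were called (65.7%, with 34.2% higher and 31.5% lower in members) and the median over all genes was 0.00. Kinetochore genes were higher in members in 13 of 22 cases and lower in none (median 0.64), and spindle and cytokinesis genes in 16 of 24 and none (0.61). Origin licensing genes were lower in 10 of 17 and higher in none (-0.85), and histone and chromatin genes lower in 9 of 14 and higher in 1 (-0.73). DNA synthesis genes were lower in 12 of 33, near the 31.5% of all genes, and higher in 3 (-0.20). Of all 177 cell cycle genes 56 were higher (31.6%, against 34.2% of all genes) and 46 lower, so the programme as a whole was not called more often than other genes.

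Genes of late cell cycle stood on the higher side. Prc1 stood at 492 and 510 CPM in members against 132 and 127 in dividing Ptprc cells (2.06 ± 0.13, edgeR adjusted p = 2.99e-07), and Cenpf at 373 and 364 against 88.2 and 108 (2.03 ± 0.13). Aspm of the spindle poles was 1.71 ± 0.17 higher, Cdc20, which starts anaphase, 1.68 ± 0.15, and Spc25 of the kinetochore 1.55 ± 0.14. Cdk1 (277 and 331 against 166 and 161 CPM, 1.00 ± 0.12) and Ccnb1 (1.06 ± 0.16) were higher too. On the lower side stood Mcm5 (51.2 and 55.5 against 132 and 113 CPM, -1.10 ± 0.17), Cdc45 (-1.07 ± 0.18), Cdc25a (-1.61 ± 0.18), E2f2 (-2.40 ± 0.28) and Hist1h1b (-0.90 ± 0.16). Pcna (-0.18 ± 0.11), Plk1 (-0.16 ± 0.23) and Aurkb (0.12 ± 0.14) did not pass.

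The G1 regulators were of different kinds in these cells. Ccnd1 was at 170 and 218 CPM in members and 14.9 and 12.4 in dividing Ptprc cells (3.92 ± 0.17), whereas Ccnd2 (-1.01 ± 0.21), Ccnd3 (57.8 and 52.8 against 177 and 168 CPM, -1.51 ± 0.15) and Cdk6 (-0.60 ± 0.14) were lower in members. Cdkn1c was at 306 and 326 CPM against 7.89 and 13.9 (4.98 ± 0.30), Cdkn1a at 387 and 529 against 119 and 223 (1.55 ± 0.19), and Cdkn2c at 138 and 117 against 38.1 and 35.6 (1.90 ± 0.14). Cdkn2a held 100 UMIs in members and none in dividing Ptprc cells, at least 21.1-fold higher against a floor of 3 UMIs over the group. Cdkn1b was the exception (34.7 and 27.1 against 78.5 and 75.4 CPM, -1.17 ± 0.16). 9 of 16 genes of this list were higher and 6 lower in members (median 1.26). The greatest differences overall follow from the gate on Ptprc, Acan and Matn3. A530046M15Rik, Plet1, H19, R3hdml, Rspo3, Gpr39, Unc5c, Sema6a, Snai2 and Sytl2 led the higher side and Mcpt8, Ccl4, Bin2, Ccr2, Cd93, Ltf, Prss34, Il1b, Fmnl1 and Cd177 the lower.

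**Figure D5:**
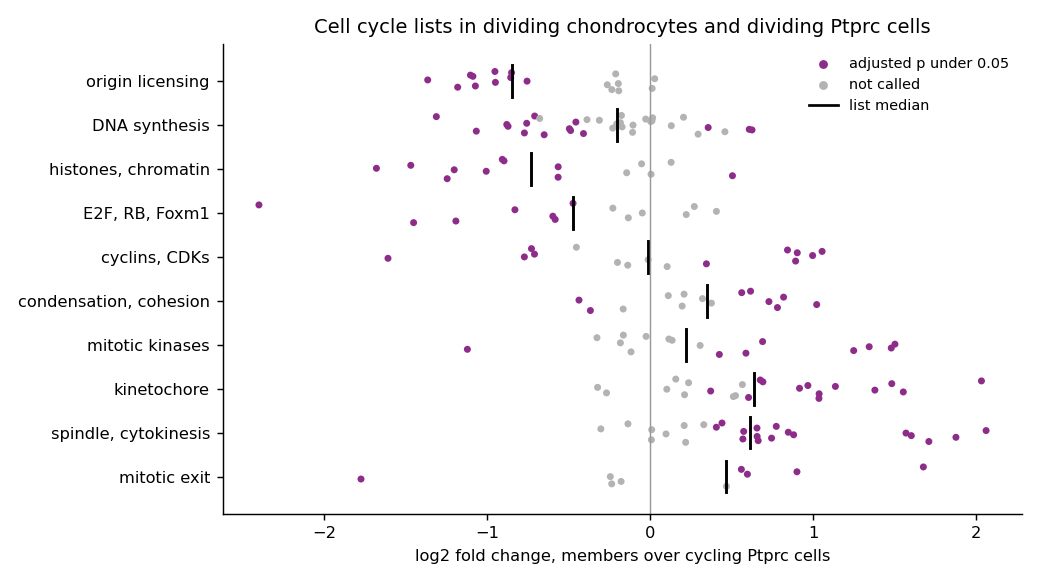
Log2 fold change of each cell cycle gene, members over dividing Ptprc cells, by list. Each point is 1 gene (purple, edgeR adjusted p under 0.05; grey, not called) and black bars are medians; licensing lies at -0.85 and histones at -0.73, while kinetochore and spindle genes lie at 0.64 and 0.61.

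The third comparison asked how members differ from dividing chondrocytes without Matn3. It rests on a single sum of 22 cells from replicate 3, since the 17 such cells of replicate 2 were under the minimum of 20, and its lone sum is assumed to vary like the others. An alternative with a minimum of 15 cells used both. The doublet score would have removed 45.5% of the 22 cells and 23.5% of the 17. It would have removed 5.51% and 2.44% of the non-dividing Matn3-negative cells of replicates 3 and 2. The part of doublets in these differences was not tested. 843 of 14422 genes were called (5.85%, with 3.95% higher and 1.89% lower in members), 1606 with both sums, and the median over all genes was 0.37, to be subtracted in reading each difference. Higher genes made up 67.6% of the calls, 59.7% with RLE size factors (median over all genes 0.26) and 43.3% with DESeq2 (median 0.21).

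Columnar genes were higher in members: 9 of 13, none lower, with a median of 2.22 (12 higher and 1 lower with both sums). Ucma stood at 1674 and 1687 CPM against 115 and 116 in replicates 2 and 3 (4.14 ± 0.15, edgeR adjusted p = 2.33e-09), Prkg2 at 351 and 349 against 3.72 and 15.1 (4.74 ± 0.33) and Col9a1 at 2980 and 2675 against 350 and 317 (3.37 ± 0.11). Superficial genes were lower in 9 of 14 (median -3.13). Prg4 stood at 1996 and 2407 against 22624 and 44843 CPM (-3.96 ± 0.06) and Gas1 at 29.7 and 38.4 against 749 and 887 (-4.45 ± 0.18). Cilp, whose level in members was not told apart from that of dividing Ptprc cells, stood at 1367 and 2232 CPM in the others. Ccnd1 was at 170 and 218 CPM against 3.72 and 5.04 (5.63 ± 0.59), Cdk6 at 174 and 167 against 29.8 and 35.3 (2.55 ± 0.34) and Ccnd2 at 21.5 and 24.4 against 89.4 and 101 (-1.72 ± 0.44, edgeR adjusted p = 0.0359). Cdkn2c did not pass (0.14 ± 0.27).

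Of 177 genes in 10 cell cycle lists, 16 were called higher in members (9.04%, against 3.95% of all genes) and none lower. 7 of the 16 were among 14 histone and chromatin genes. With both sums 20 of the 177 were higher (11.3%) and 5 lower, against 1080 higher and 526 lower of all 13447 genes. The 5 lower cell cycle genes were Cenpa, Cenpf, Kif20a, Rbl2 and Ube2c. H2afz was at 2258 and 2610 CPM against 2175 and 1632 (0.91 ± 0.09), Spc24 of the kinetochore at 197 and 219 against 108 and 95.7 (1.38 ± 0.28) and the condensin gene Ncapd3 at 70.5 and 67.7 against 22.3 and 15.1 (2.49 ± 0.66). Cdk1 (0.29 ± 0.24) and Prc1 (0.23 ± 0.16) did not pass. Cenpf, at 373 and 364 against 805 and 610 CPM, did not pass (-0.40 ± 0.22) but passed with both sums (-0.73, edgeR adjusted p = 0.00600).

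Of the genes with the greatest difference, R3hdml, Epyc, Nid2, Il17b, Gm43154, Tnc, Wscd2, Chrdl1, Slc35e3 and Rspo3 were higher in members. Epyc, a small proteoglycan of growing cartilage, had 1028 UMIs in members and none in the others, at least 24.8-fold higher, and R3hdml 901 against 1 UMI (ratio 65.2, counting interval 11.7 to 2578). Chrdl1 had 448 against 14 UMIs (ratio 2.32, 1.37 to 4.27) and was not called with both sums. Casr, Gas1, Vcan, Dpysl3, Prg4, Cilp, Serpina1e, Chchd10, Col3a1 and Bmp2 were lower in members. Vcan, a proteoglycan of looser matrix, stood at 4.25 and 6.77 against 85.7 and 116 CPM (-4.05 ± 0.43), and Col3a1 at 21.7 and 28.9 against 291 and 378 (-3.70 ± 0.34).

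A test of the difference itself asked whether division went with other changes in Matn3 chondrocytes than in Matn3-negative ones. 163 of 14422 genes were called (1.13%, with 0.818% higher and 0.312% lower in the Matn3 cells), against 38 when the non-dividing cells were matched in depth, and the median over all genes was 0.38. Higher genes were 72.4% of the calls, but 58.6% with RLE size factors and 40.1% with DESeq2. This result too rests on the single sum of 22 cells, of which the doublet score would have removed 45.5%. At matched depth the non-dividing Matn3-negative cells were also a single sum of 22, in place of 1848 and 3505. Depth and cell number thus changed together, and the part of each was not tested. Ucma was at 1674 and 1687 CPM in dividing and 1571 and 1536 in non-dividing Matn3 cells, but at 116 in dividing (replicate 3) and 380 and 376 in non-dividing Matn3-negative cells, a difference of 2.28 ± 0.19 (edgeR adjusted p = 5.23e-05) that was not called at matched depth (1.16, adjusted p = 0.145). Gas1 was at 29.7 and 38.4 against 127 and 142 CPM with Matn3, and at 887 against 721 and 673 without (-1.91 ± 0.19, and -1.98 at matched depth with adjusted p = 0.0106). The 10 genes furthest up were Ncapd3, Snx18, Cenpp, Spc24, Ucma, Tm4sf1, Mybl1, Sdc3, Dnajb1 and Smim3, of which Dnajb1, a heat shock chaperone, was also called at matched depth (adjusted p = 0.00102). The 10 furthest down were Vpreb3, Fjx1, Cxcl14, 9530026P05Rik, Ebf1, Tmtc2, Nbl1, Gsr, Arhgdib and Dpysl3. Of the other 19 of these genes none was called at matched depth, where Spc24 turned to -4.49 (edgeR adjusted p = 0.858). Arhgdib turned to 0.065 with each cell thinned and, like Cxcl14 (0.49), to 0.39 with at least 2 UMIs of both genes of the rule and sums of 15 cells or more, and neither was then called. Vpreb3, a gene of early B cells, had 156 CPM in the 22 cells and under 1 CPM in every other sum of the fit. Of those 22 cells 3 carried blood markers. Without blood-carrying cells and with sums of 15 cells or more, 257 genes were called, and Ucma (2.12) and Gas1 (-2.29) were among them.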

How the data were processed

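3 libraries of sorted Alcam+Sca-1- BLCs were analysed as 1 group with replicates 1 to 3. The authors aligned reads to the mouse genome (mm10) and counted UMIs per gene and barcode with Cell Ranger (version 7.1.0, per the submitters' processing notes). The deposited matrices hold raw counts, and the lowest barcode total was 502 UMIs. In the study the merged libraries were clustered with Loupe Browser, with no cell filter stated. Its clusters were not used here, and populations were rebuilt from the counts.

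The cell filter removed 79, 447 and 299 barcodes with under 200 genes or over 20% mitochondrial UMIs. Doublets were not removed in the main analysis. Scrublet (scanpy 1.11.5) was an alternative in which the highest-scoring barcodes, 0.8% per 1000 cells, were left out. Counts were summed per library and population, and sums under 20 cells were dropped. edgeR (4.0.16, R 4.3.3) fitted 9 sums (3 residual degrees of freedom; 10 sums and 4 for Ptprc cells) with TMM scaling, filterByExpr with a minimum count of 10, the library as a block and Benjamini-Hochberg adjustment. DESeq2 (1.42.0) was an alternative. The block holds because sums of 1 library share its cells' capture; deviations of same-library sums correlated at 0.06 to 0.19. On data simulated for the comparison of dividing with non-dividing cells (13145 genes), 64 of 67 genes changed 1.5-fold were recovered, and 67 of 67 changed 2-fold and 66 of 66 changed 4-fold, with 9 false among 206 calls. Genes with few expected counts in the smallest sum were not among those changed, so recovery of low genes is not covered. The simulation held no library effect and changed far fewer genes than were called in the data. PCR copies are removed by UMIs, and intervals cover counting error only.

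Named genes were the 10 furthest up and down in each comparison with adjusted p under 0.05, the same direction in both libraries and at least 50 CPM in the higher population, leaving out the 5 genes of the rule, and for the first comparison also the 10 furthest up outside the cell cycle lists, of which 1 is not reported here. Genes of the fixed lists were named besides, and 10 genes by correlation of log2(CPM + 10) with Mki67. The members and the lists were chosen with earlier results of these data known. The comparison with Ptprc cells, the minimum of 15 cells (alone or with other alternatives), and the fits without blood-carrying cells or with at least 1000 CPM of Matn3 were added after the data were seen. Gene positions are from GENCODE M21 (GRCm38).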

Additional observations from a re-analysis of the deposited data

Results flagged for a closer look

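The test of the difference between the 2 kinds of chondrocyte called 163 genes, and it stands out because the same contrast, dividing against non-dividing cells, differed between cells with and without Matn3. At matched depth 38 genes were called. The difference was 2.28 for Ucma, which was not called at matched depth (1.16, edgeR adjusted p = 0.145), and -1.91 for Gas1, which was (-1.98, adjusted p = 0.0106). 3 of the 22 dividing Matn3-negative cells of replicate 3 carried blood markers, and a doublet score would have removed 45.5% of the 22. Without such cells and with sums of 15 cells or more, the calls numbered 257, against 278 with them.

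Replicate 1, which gave no member, held 4 cells with UMIs of Mki67, Top2a and Acan but not of Matn3, among 442 Matn3-negative chondrocytes (0.905%, exact binomial 95% interval 0.247 to 2.30%). They stand out because they lie in a library that no comparison of chondrocytes uses.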

How the results depend on the processing

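The 5400 calls between dividing and non-dividing Matn3 chondrocytes became 2137 with each cell thinned, 3128 against depth-matched cells and 3431 with DESeq2. The 843 calls against dividing Matn3-negative cells became 282 thinned, 1606 with both sums and, also with sums of 15 cells or more, 1458 without blood-carrying cells and 1413 with stricter Acan and Matn3 minimums. The 163 calls of the difference became 419 with no filter on low counts, 60 thinned, 38 at matched depth, 278 with both sums, of 15 cells or more also 257 without blood-carrying cells and 296 with 2 UMIs of each gene of division, and 264 at 1000 CPM or more of Matn3. Matching in depth also cut the number of non-dividing cells, so depth and cell number changed together. The cause of these shifts was not tested. Without the replicate block, which pairs sums of 1 library, the counts were 4866, 787, 83 and, against Ptprc cells, 8129. The mean share with both genes, 4.20 ± 1.02% (SD, n = 2 libraries), became 2.52% thinned to 3000 UMIs, 1.34% at 1500 and 9.44% with either gene, and 3.47 to 4.92% without either library. The share with more mitosis than replication UMIs, 80.3%, became 81.4% unthinned and 79.1% at 1500 UMIs. Signs turned at matched depth for Pttg1 (0.0052), Col2a1 (-0.049), Col9a1 (-0.26), Col11a2 (-0.18), Ucma (-0.20) and, in the difference, Spc24 (-4.49). They turned in cells rich in Matn3 for Car1 (-1.21), Car2 (-0.60), Col9a1 (-0.19), Col11a2 (-0.056) and Ucma (-0.22), without blood-carrying cells for Hba-a1 (-0.91), and with thinning for Ccnd1 (0.36) and, in the difference, Arhgdib (0.065). With the 2-UMI rule and sums of 15 cells or more the difference turned for Cxcl14 (0.49) and Arhgdib (0.39). Leaving out 1 library left no residual degrees of freedom for the first 3 comparisons. The Scrublet, 2-UMI, stricter Acan and Matn3, and blood-marker alternatives left the dividing Matn3-negative cells under 20, so the comparisons that need them were run with a minimum of 15 cells, except for Scrublet, which left 13 and 12.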

Other observations

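Stress and immediate early genes were also measured. Of 15 such genes 2 rose and 8 fell in members against non-dividing Matn3 chondrocytes, but 2 rose and 1 fell against depth-matched cells. Jun, a component of AP-1, was at 1835 and 1106 CPM in members against 1068 and 796 (0.55 ± 0.10, edgeR adjusted p = 0.000563), and Fos at 2016 and 998 against 1483 and 1265 CPM (0.00 ± 0.16, not called). Of 11 p53 target genes 1 rose, Gtse1, which is itself a gene of G2 phase.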
